A study of Mus musculus with 15 samples.

Results

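Input libraries of a Ψ immunoprecipitation (Ψ-IP) and mock-treated libraries of a CMC experiment are the 2 kinds of mouse testis small RNA library in this study that were made without any selection for pseudouridine (Ψ). Both groups were taken by their treatment labels, with 3 input and 3 mock-treated libraries, 6 of the 15 libraries of the series. All 6 came from the testes of male C57Bl/6 mice aged 8 weeks, with no mutation or transgene named. Input is the small RNA that was set aside before incubation with the antibody against Ψ. Mock treatment leaves out CMC, the carbodiimide that marks Ψ, and their labels read untreated in the title and mock treated under treatment. The groups differ in how they were made. Input libraries were built with the Perkin Elmer Nextflex v3 kit and mock-treated libraries with the NEBNext small RNA kit, and the adaptors clipped from their reads differ. For every library the labels give a gel fraction of 17 to 40 nt, whereas the study's methods give a narrower fraction for immunoprecipitation. Kit, protocol and group therefore cannot be told apart, and each difference below is one between these libraries. Nothing states that the 3 libraries of a group came from different animals, so p-values measure only the spread between libraries.

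Piwi-interacting RNAs (piRNAs) are germline small RNAs that guide PIWI proteins to transposon and gene transcripts. In the mouse testis most are cut from long transcripts of genomic piRNA clusters, begin with U, and end where the 3′ end has been trimmed and methylated. The PIWI protein MILI carries shorter piRNAs than MIWI, which binds the abundant pachytene piRNAs of meiotic and later germ cells. A count at a given genomic interval and strand, called a locus here, therefore has both a 5′ end, set by cleavage, and a 3′ end, set by trimming.

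Raw counts totalled 25063656, 16571184 and 18875128 in input and 35618956, 58399368 and 40063216 in mock-treated libraries, at 1875996 to 2472176 loci per library. At least 99.985% of counts in each library lay in the listed piRNA clusters. The authors intersected reads with clusters before counting, so that share is set by the processing and is not a result. Libraries of the same group were not copies of each other, and the chi-square of a pair over its degrees of freedom ran from 2.13 to 4.63. The files held no gene expression, so the testis label was checked only through the piRNA population itself. All 6 libraries had their most frequent length at 30 nt, and among loci with a readable sequence the first base was U in 85.4% to 86.8% of counts.

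Some of the loci that were nearly absent from one kind of library are shown first. The 6 largest rises and 6 largest falls in input are printed to show their lengths and 3′ ends, among loci of at most 30 nt that passed the test described below, averaged 100 counts or more, did not overlap between groups and lay in exons of GENCODE M21 (GRCm38, the assembly also called mm10), with loci in UTRs and on 1 chromosome left out. They were chosen by the size of the difference, which is therefore a description. Sequences run 5′ to 3′ in DNA letters with the last base in capitals. Those higher in input were:
chr8:93418470-93418499 (minus strand, Gm30132): tgggacacgcttattttttaagctagtatT
chr3:34873433-34873462 (plus strand, Gm21388): tataatgcttgtatttcgtgtcttcaaggA
chr17:27361332-27361359 (plus strand, Gm49794): tagcaaaagagcatgatttaaaacacaA
chr6:85113145-85113174 (minus strand, Gm5878): ttcctgaatattggccatatcctgaatgaT
chr17:27361332-27361358 (plus strand, Gm49794): tagcaaaagagcatgatttaaaacacA
chr6:128189397-128189426 (minus strand, Gm10010): taattccttagaatcaccatgtggcgatgT

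Those lower in input were:
chr2:151266606-151266627 (minus strand, Gm14144): tgaatatctcggacttgttgaC
chr7:73817935-73817950 (plus strand, Gm21269): tcgggcttaggcacaG
chr17:27355095-27355110 (plus strand, Gm49794): tccccaactaactcaC
chr2:151314223-151314244 (plus strand, 4930442J19Rik): tgaatatctcggacttgttgaC
chr17:27355734-27355752 (plus strand, Gm49794 and the Mir7217 hairpin): tcggaacttgtatcttgtG
chr13:53402624-53402645 (plus strand, Gm2762): taccatgactgtagctgacttG

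The length limit was set for printing, and a 34-nt locus in an exon of Gm21269, at chr7:73817222-73817255 on the plus strand, rose more than those shown. The loci printed as higher in input were 27 to 30 nt long and ended in U (T in these letters) or A, whereas those printed as lower were 16 to 22 nt long and ended in C at 3 loci and in G at the other 3. All 12 lie in exons of long non-coding RNAs. Levels are given in CPM, that is, counts relative to a library size normalized by TMM. The Gm30132 locus was at 26.6, 18.7 and 26.8 CPM in input and at 0, 0 and 0.0610 in mock-treated libraries. In contrast, the Gm14144 locus had 0 counts in every input library and was at 12.3, 14.3 and 13.7 CPM in mock-treated libraries, at least 88.2-fold lower in input when 3 counts per library are taken as the limit of detection. The loci in Gm14144 and 4930442J19Rik share 1 sequence, with 1442 and 1393 counts over the mock-treated libraries. How reads with several alignments were counted is not stated, so that these 2 places cannot be told apart.

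The 2 kinds of library held piRNAs of different length. In input, 29.8%, 30.04% and 29.7% of counts were at 30 nt, compared with 26.0%, 25.6% and 24.7% in mock-treated libraries. Counts at 25 to 27 nt, the length of MILI-bound piRNAs, made up 13.5%, 13.4% and 14.03% of input and 18.9%, 19.0% and 19.7% of mock-treated libraries. The MIWI-bound range of 29 to 31 nt held 67.2% ± 0.472 of counts in input and 60.1% ± 1.28 in mock-treated libraries (SD, n = 3 each). Every one of these ranges differed without overlap between groups (two-sided exact permutation p = 0.1, a value that 3 against 3 libraries cannot go below). Within 29 to 31 nt the order was not uniform, since 29 nt took a smaller share of input (18.6% ± 0.156) than of mock-treated libraries (21.2% ± 0.495), whereas 31 to 33 nt took 26.2% and 17.8%. The largest relative differences were at the edges. Counts of 23 nt or less were 2.06%, 1.79% and 2.22% of input and 4.50%, 4.90% and 5.85% of mock-treated libraries. Loci of 34 nt or more held 1.60%, 1.498% and 1.40% of input counts and none of the mock-treated counts, whose longest locus was 33 nt. Mean length was thus 29.36 nt in input and 28.50 nt in mock-treated libraries.

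**Figure D1:**
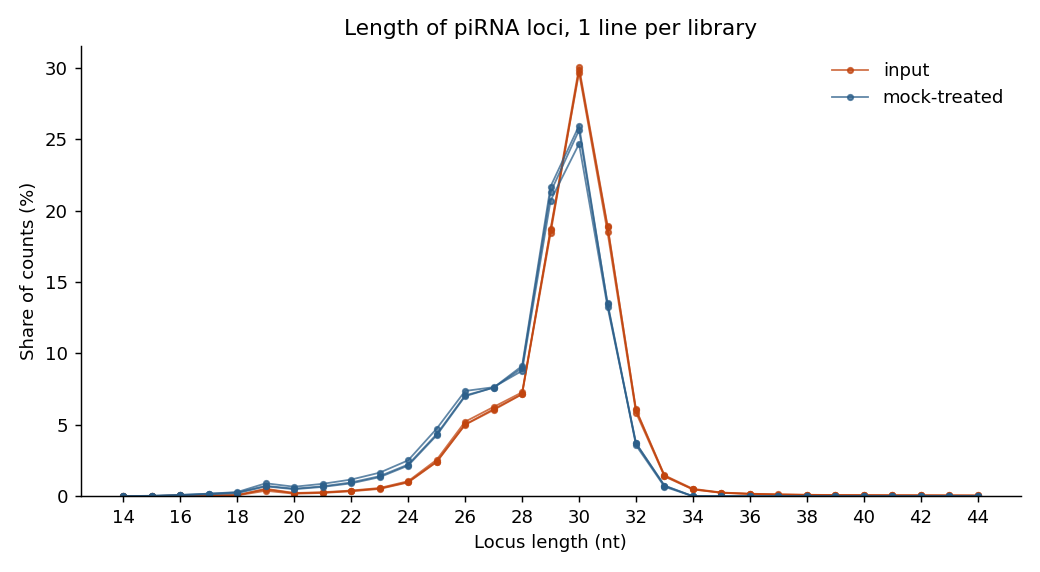
Percent of counts (y axis) at each locus length in nt (x axis) for the 3 input and 3 mock-treated libraries, 1 line per library. All libraries peak at 30 nt. Input lines lie above mock-treated lines from 30 nt upward and below them from 17 to 29 nt, and counts beyond 33 nt appear only in input.

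The same shift was seen in LINE, LTR and SINE piRNAs and outside repeats. Counts at 25 to 27 nt made up 10.3% of LINE counts in input and 13.6% in mock-treated libraries, and at 23 nt or less 1.45% and 6.34%. DNA transposons were the exception, with 9.58% of their counts at 25 to 27 nt in input and 7.97% in mock-treated libraries. That exception came from 1 locus. Without the most abundant hAT-Blackjack locus, described below, the values were 9.90% and 18.1%.

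The 3′ terminal base differed as well. Sequence could be read only for loci wholly inside annotated exons, 15.6% of the loci tested and 13.2% to 13.4% of counts in each library, which is too few to describe all loci. Among these, C was the last base of 24.6%, 24.2% and 24.3% of input counts and of 32.6%, 33.4% and 33.8% of mock-treated counts. A was last in 26.3% ± 0.137 of input and 19.1% ± 0.454 of mock-treated counts, and U in 29.7% ± 0.433 and 24.4% ± 0.240 (SD, n = 3 each). G was last in 19.6% and 23.3%. None of the 4 bases overlapped between groups (exact permutation p = 0.1). The preference also appeared at a fixed length, since at 29 nt the last base was C in 23.8% of input and 41.6% of mock-treated counts and at 30 nt in 21.3% and 34.4%. At 31 nt it was different, where U was last in 32.03% and 39.4% and C in 26.0% and 27.5%.

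The 5′ terminal base, which PIWI proteins hold in a pocket that favours U, differed less at its main base and without overlap at all 4 (exact permutation p = 0.1). U was first in 86.6% ± 0.203 of input and 85.7% ± 0.284 of mock-treated counts, and G in 4.36% ± 0.235 and 6.78% ± 0.231, an input to mock-treated ratio of 0.643, compared with 0.733 for C, 1.38 for A, 1.22 for U and 0.842 for G at the last base. When each locus was counted once, G was first more often in input. An A at base 10, the mark of piRNAs made by the ping-pong cycle in which 2 PIWI proteins cleave opposite strands, was found in 30.4%, 29.6% and 30.3% of input and 30.1%, 29.2% and 29.7% of mock-treated counts, which overlapped (exact permutation p = 0.3). Inside the sequence, A at the third base made up 32.2% and 26.0% of counts.

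Most loci were seen in few libraries. Over the 6 libraries 5914177 loci had at least 1 count, of which 419361 (7.09%) were found in all 6. These shared loci held 73.3%, 74.8% and 74.0% of input counts and 88.1%, 87.9% and 87.4% of mock-treated counts, so that the same loci made up most of both populations. A further 250740 loci (4.24%) were found in all input and no mock-treated library, with 6.23% of input counts, and 242702 (4.10%) in all mock-treated and no input library, with 2.47% of mock-treated counts. At 5 counts or more, with fewer than 5 taken as absent, these numbers were 127843 and 154781, so that their order turned. That cut was the same for every library although mock-treated libraries were deeper. Leaving out 1 library raised the first number at 1 count or more to 416721 at most (without input replicate 2) and the second to 403136 at most (without mock-treated replicate 1). When every library was brought to 16571184 counts by the hypergeometric formula, 1962141 loci were expected in input on average (from 1925294 to 2007070) and 1255738 in mock-treated libraries (from 1243116 to 1265591).

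Input counts were spread over more loci than mock-treated counts. It took 34677, 33401 and 33511 loci to hold 50% of counts in input and 9216, 9001 and 8773 in mock-treated libraries. The 100 most abundant loci of a library held 4.01% ± 0.0548 of input and 9.71% ± 0.132 of mock-treated counts (SD, n = 3 each), and the single most abundant locus 0.178% and 1.05%. At 5′ ends, for which all lengths that start at the same base were added up, 8785 ends in input and 2166 in mock-treated libraries held 50% of counts. Over clusters, counts were about as concentrated in both groups. There, 10 clusters held 50% of counts in each input library and 9 in each mock-treated library, and the 10 most abundant held 51.5% ± 0.102 and 53.5% ± 0.117. The same 10 clusters were most abundant in both groups and 96 of the 100 most abundant were shared, whereas 1 of the 10, 18 of the 100 and 242 of the 1000 most abundant loci were.

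Locus levels were therefore compared with edgeR's quasi-likelihood test, and a locus was counted as changed at a Benjamini-Hochberg adjusted p-value under 0.01. Of 633330 loci with more than 20 counts in total, 477570 changed (75.4%), with 247548 higher in input (39.1%) and 230022 lower (36.3%). The difference was at least 2-fold for 468254 (73.9%). Groups did not overlap at 521460 loci (82.3%), and the median size of the log2 difference was 2.79. When only library totals were used for scaling, 271343 loci were higher and 192334 lower, and the median log2 difference of all loci moved from -0.09 to 0.37. The balance was different among loci with many counts, but that cut was on raw counts and mock-treated libraries were deeper. Loci high in mock-treated libraries thus pass it more easily, and the balance is in part set by the cut. Among 44733 abundant loci (average of 100 counts or more), 12392 were higher and 28584 lower in input (91.6% changed), and 16983 (38.0%) differed at least 10-fold, 6078 higher and 10905 lower. With these abundant loci normalized among themselves, 17555 were higher and 21661 lower.

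Higher and lower loci differed in length. At 23 nt or less, 7.03% of loci were higher in input and 72.7% lower. At 25 to 27 nt the values were 29.1% and 43.3%, and at 30 nt 50.9% and 25.9%. The 5221 tested loci of 34 nt or more could only be higher, since mock-treated files hold no locus of that length. At 29 or 30 nt, loci that ended in A were higher in 51.2% of cases and lower in 24.2%, and those that ended in C in 35.1% and 38.6%. Repeat class, on the other hand, made little difference to the proportions. Of LINE loci 38.5% were higher and 36.3% lower, of LTR loci 38.5% and 36.7%, of SINE loci 36.8% and 36.3%, and outside repeats 39.2% and 36.3%. DNA transposon loci were higher in 44.4% and lower in 32.4%.

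The most abundant single loci showed how far the order of piRNAs differed. The highest locus in input, of 29 nt at chr17:66213513-66213541 on the plus strand, was at 1901, 1513 and 1913 CPM in input and at 301, 320 and 259 in mock-treated libraries (log2 difference 2.60, standard error 0.154, edgeR adjusted p = 4.66e-62). A 30-nt locus in an exon of the long non-coding RNA Gm21269, tatgtgaatttcaactgttggctccacagG at chr7:73824992-73825021 on the plus strand, was at 1088, 842 and 1123 CPM in input and at 105, 128 and 103 in mock-treated libraries. Its log2 difference was 3.18 (standard error 0.161, edgeR adjusted p = 3.69e-85). Of the 5 highest input loci the others were not higher in input. A 30-nt locus in an intron of Gm10505, at chr17:27333015-27333044, was at 1623, 1101 and 1649 CPM in input and at 1629, 1810 and 1549 in mock-treated libraries, and the groups overlapped (log2 difference -0.19, adjusted p = 0.21, with the opposite sign for library totals, for the abundant loci fitted alone and without input replicate 2). A MIRc locus at chr6:127800672-127800701 was at 942 ± 89.1 and 1455 ± 199 CPM (SD, n = 3 each), lower in input when all tested loci were fitted (log2 difference -0.63) and higher when only the abundant loci were fitted (0.67). The locus at chr11:107995808-107995836, antisense to an intron of the kinase gene Prkca, was at 1044 and 2873 CPM (log2 difference -1.46), and did not pass the test when only the abundant loci were fitted (-0.16, edgeR adjusted p = 0.197).

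All 5 highest mock-treated loci were lower in input when all tested loci were fitted. Sizes here are from that fit, and the loci fitted both ways above show that sizes depend on which loci are fitted. The first of them, of 29 nt within a MER94B element at chr12:98400625-98400653 on the minus strand, was at 440, 290 and 443 CPM in input and at 11991, 14211 and 13177 in mock-treated libraries (log2 difference -5.07, standard error 0.164, edgeR adjusted p = 2.12e-205). In the same cluster, gaccatttcactcagactgtaaccatgaC at chr12:98447235-98447263 on the plus strand, antisense to an exon of 5330409N07Rik and to an intron of the potassium channel gene Kcnk10, was at 188, 205 and 162 CPM in input and at 3214, 3762 and 3663 in mock-treated libraries. Likewise tagaagacgagtttggactgagcgaaattC, in an exon of Gm5878 at chr6:85112878-85112907 on the minus strand, was at 220, 321 and 243 and at 3211, 3722 and 3479 CPM. Both of these sequences end in C. The deepest fall among the 5 was at chr17:27295999-27296027 on the minus strand, with 34.3, 27.8 and 31.8 CPM in input and 2546, 3296 and 3173 in mock-treated libraries (log2 difference -6.58, standard error 0.185). An exon of Gm5878 also held one of the loci printed above as higher in input, so that loci of 1 transcript differed in opposite directions.

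The 5 largest rises among the abundant loci were of 34 to 36 nt, beyond the 33 nt at which mock-treated files end. Their 0 counts in mock-treated libraries, and so their rank, are set by that limit, and no fold is given for them. The first, at chr10:75856964-75856997 on the plus strand, was at 259, 182 and 206 CPM in input. The 5 largest falls, at lengths that both kinds of file hold, were of 15 to 21 nt with 0 counts in all input libraries. A 15-nt locus at chr18:67059144-67059158 on the minus strand was at 74.5, 144 and 103 CPM in mock-treated libraries, at least 703-fold lower in input.

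**Figure D2:**
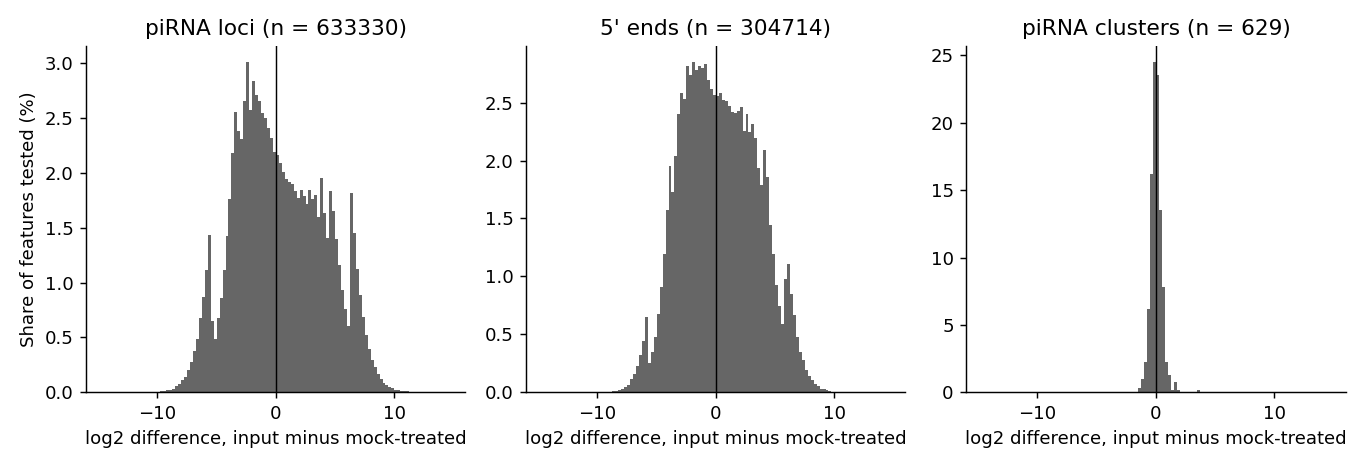
Distribution of log2 differences (x axis, input over mock-treated, TMM scale) as percent of features (y axis) for loci, 5′ ends and clusters. Loci and 5′ ends spread widely on both sides of 0, with a median size of 2.79 for loci, whereas clusters stay close to 0, with a median size of 0.263.

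Differences were as frequent when length was set aside. When loci that start at the same base were added up, 227665 of 304714 5′ ends changed (74.7%), with 120245 higher (39.5%) and 107420 lower (35.3%) and 219458 (72.0%) at least 2-fold. Groups did not overlap at 247188 5′ ends (81.1%). With library totals 154322 were higher and 67730 lower, since the median log2 difference of all 5′ ends moved from 0.16 to 1.20. The percentage of 5′ ends that changed was thus close to that of loci.

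piRNAs from a given 5′ end were on average longer in input. Of 1317 5′ ends with an average of at least 1000 counts in each group, mean length was greater in every input library than in any mock-treated library at 997 (75.7%), smaller at 212 (16.1%) and overlapping at 108. The median difference was 0.535 nt, with a range from -2.999 to 7.42 nt, whereas the median range within a group was 0.106 nt. The most frequent length was the same in both groups at 794 of these ends (60.3%), greater in input at 377 and smaller at 146. Input loci ran to 44 nt and mock-treated loci only to 33 nt, so these lengths are capped in 1 group. The tallies are thus in part open to that limit.

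The largest differences in mean length went with a different most frequent 3′ end. From the base at position 75856964 of chromosome 10 (plus strand), mean length was 34.01, 34.1 and 33.9 nt in input and 26.6, 26.8 and 26.4 nt in mock-treated libraries. There, 42.7% of input counts were at 34 nt and 36.0% of mock-treated counts at 26 nt, and the summed level of this 5′ end was higher in input (log2 difference 2.66). Mock-treated files hold no locus of 34 nt, so mean length, most frequent length and level at this end are in part set by that limit. Position 74640859 of chromosome 15 (plus strand) had a mean length of 32.1 nt and 26.0 nt, with the most frequent length at 33 nt and 27 nt. From position 113323817 of chromosome 5 (minus strand), 50.7% of mock-treated counts were at 18 nt, compared with 0.256% of input counts, and 65.5% of input counts were at 31 nt, compared with 34.7%. The reverse was seen at position 27345374 of chromosome 17 (plus strand), where mean length was 27.5 nt in input and 30.5 nt in mock-treated libraries and 81.4% of mock-treated counts were at 31 nt. In an intron of the zinc finger gene Zfp37, position 62226479 of chromosome 4 (minus strand) had a mean length of 27.1 nt and 29.4 nt. Its summed level was 76.6 ± 4.25 CPM in input and 90.4 ± 8.56 in mock-treated libraries (SD, n = 3 each), which did not overlap but did not pass the test (log2 difference -0.24, adjusted p = 0.125), and with library totals the direction was the opposite (0.80).

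How much of the profile was shared depended on the scale at which counts were added up. Overlap here is the percentage of counts that 2 libraries place at the same feature, each library being set to a total of 100%. It was 29.8% to 32.6% for the 9 pairs of an input and a mock-treated library when each locus was taken separately, 33.1% to 36.0% for 3′ ends and 36.8% to 39.6% for 5′ ends. In windows by 5′ end it was 40.6% to 43.8% at 10 nt, 56.5% to 59.2% at 100 nt and 77.4% to 78.9% at 1000 nt, and over whole clusters 92.2% to 93.0%. Within a group overlap was already 79.1% to 82.9% in input and 89.1% to 90.7% in mock-treated libraries at single loci, and at least 99.0% over clusters. At every scale, every pair within a group overlapped more than any pair between groups.

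**Figure D3:**
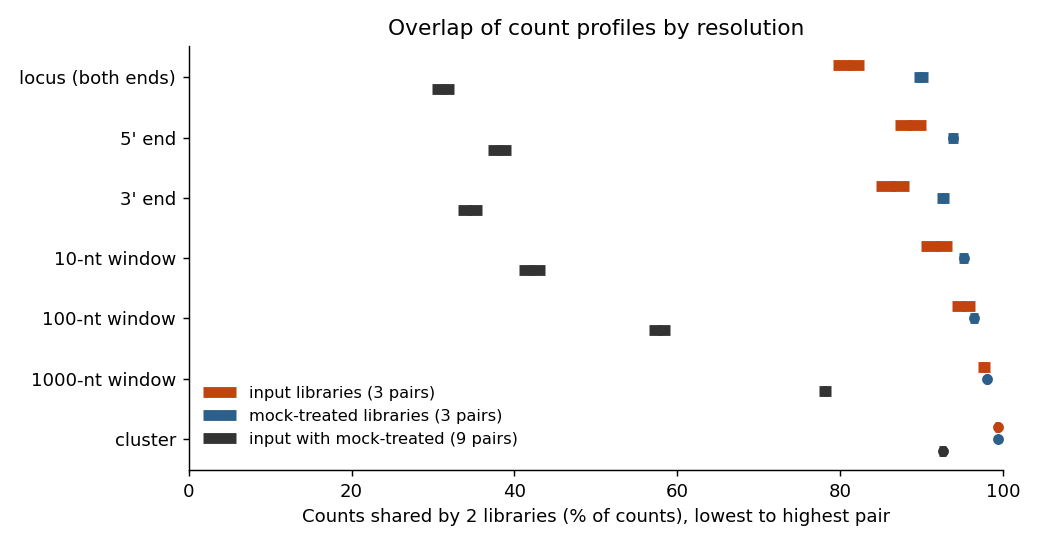
Overlap of count profiles between pairs of libraries (x axis, percent) by the scale at which counts were added up (y axis), with bars from the lowest to the highest pair. Pairs between groups rise from 29.8% to 32.6% at single loci to 92.2% to 93.0% at clusters, and pairs within a group stay above them at every scale.

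Cluster levels were close, but the spread between libraries was small enough for many of the differences to pass the test. Of 629 clusters with an average of at least 100 counts, 408 changed (64.9%), with 203 higher in input (32.3%) and 205 lower (32.6%). Only 24 (3.82%) differed at least 2-fold, 16 higher and 8 lower. The median size of the log2 difference was 0.263, and groups did not overlap at 475 clusters (75.5%). With library totals 258 were higher and 162 lower, while the median log2 difference of all clusters stayed below 0.1. Among the 93 clusters with an average of at least 10000 counts, 34 were higher and 37 lower (76.3%), and log2 differences ranged from -1.13 to 1.21.

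The 10 most abundant clusters, of 47.3 to 102 kb, differed by log2 values from -0.47 to 0.30. The largest, at chr17:27269742-27371971, took 8.07%, 8.11% and 8.13% of input counts and 10.4%, 10.46% and 10.8% of mock-treated counts (log2 difference -0.47, standard error 0.0148, edgeR adjusted p = 3.59e-19). This cluster, which spans Gm10505 and Gm49794, also differed from the other nine in length, with 30.2% of its input counts and 34.5% of its mock-treated counts at 25 to 27 nt. The cluster at chr7:73759085-73850982, which spans Gm21269, was the only one of the 10 to pass the test as higher in input on the TMM scale, with 5.07%, 4.94% and 5.07% of input and 3.86%, 3.87% and 3.82% of mock-treated counts (log2 difference 0.30, standard error 0.0158, adjusted p = 6.40e-15). At chr12:98369021-98458701, which overlaps Kcnk10, the shares were 4.78% and 6.07% (log2 difference -0.43), and 1 locus, the MER94B locus above, made up 17.4% of the mock-treated and 0.819% of the input counts.

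Clusters at chr2:92515043-92616945 (log2 difference -0.14) and chr5:113313086-113380791 (-0.19) were also lower. Those at chr18:67026089-67102906 (-0.06) and chr5:149786246-149833536 (-0.06) passed the test as lower on the TMM scale, but took slightly more of the counts in input (5.61% against 5.52%, and 3.64% against 3.59%) and were 0.02 higher with library totals. Neither of the pair passed at 24 to 33 nt or with DESeq2. The others, at chr9:67687024-67773986, chr6:127772025-127854021 and chr15:59242057-59315746, did not pass (log2 differences 0.03, -0.04 and 0.04), and the second of these had the opposite sign with library totals and at 24 to 33 nt. The first and the third passed as higher in input with library totals and at 24 to 33 nt. By share of counts all 3 were higher in input without overlap, at 6.32% and 5.84%, 5.03% and 4.89%, and 3.51% and 3.21%. Each of the 10 clusters held both kinds of locus. Between 37.6% and 44.6% of the 19828 to 49730 loci tested per cluster were higher in input and 32.1% to 38.4% lower, near the 39.1% and 36.3% of all tested loci, and locus profiles within a cluster overlapped by 27.2% to 36.0% between groups. Strand use was close at some clusters and not at others. At chr17, where transcripts run both ways, 51.4% of input and 50.8% of mock-treated counts were on the plus strand, and at chr2 99.3% in both. The plus strand took less of input than of mock-treated counts at chr12:98369021-98458701 (24.5% and 29.3%), chr5:113313086-113380791 (50.3% and 54.8%) and chr15:59242057-59315746 (20.2% and 24.6%).

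**Figure D4:**
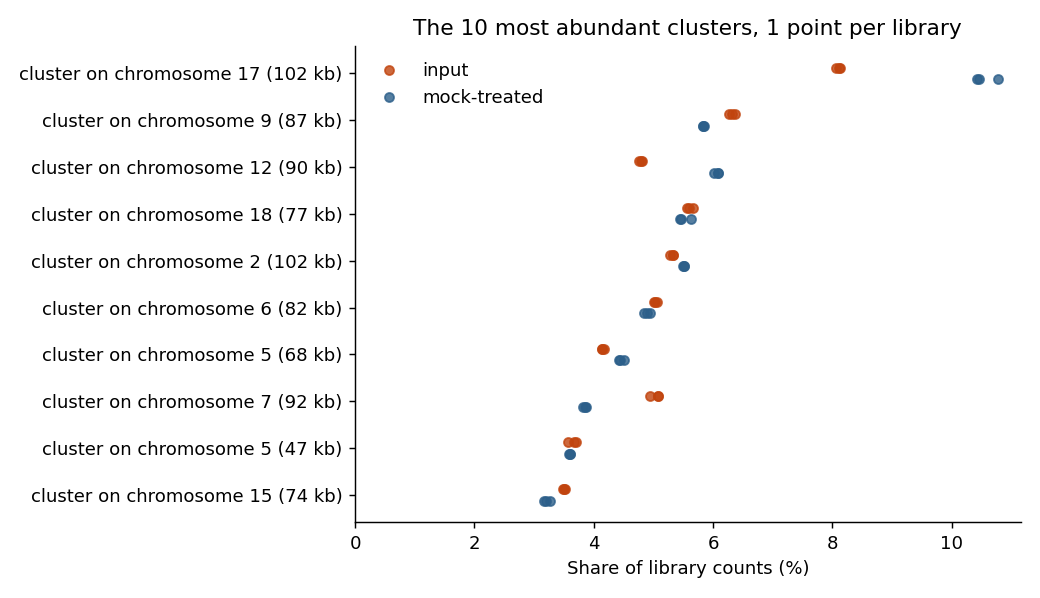
Percent of counts (x axis) in each of the 10 most abundant clusters (y axis, by chromosome and length in kb) for each input and mock-treated library. The chromosome 17 cluster of 102 kb is lower in all 3 input libraries and the chromosome 7 cluster higher, and most other clusters lie close together.

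The largest cluster differences were in small intervals, and some of these held loci of a miRNA or a small nucleolar RNA. An interval at chr13:23430593-23453778 was at 30.7, 28.2 and 35.5 CPM in input and at 2.86, 2.80 and 2.56 in mock-treated libraries (log2 difference 3.52, standard error 0.0891, adjusted p = 8.63e-21), with 96.4% of its input counts at 23 nt or less. Its main input locus, of 20 nt at chr13:23453420-23453439 on the minus strand, had 351, 196 and 294 counts in input and 0 in every mock-treated library.

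An interval at chr10:126995543-126999626, in the phosphatase gene Ctdsp2, was at 40.5 and 10.2 CPM (log2 difference 1.99). It holds Mir26a-2, whose product miR-26a-5p is an abundant miRNA of many tissues. Its main input locus is shown here beside the mature miRNA, with the last base of the locus and the seed of the miRNA (bases 2 to 8) in capitals, the latter from RefSeq for GRCm38.p6:
locus chr10:126995544-126995564 (plus strand): tcaagtaatccaggataggcT
mmu-miR-26a-5p: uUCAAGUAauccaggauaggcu
The locus starts 1 base after the miRNA, whose first base is the first base of the interval. Every counted locus of an interval starts after its first base, so the full-length miRNA could not be counted here. The levels thus cover a shortened form and other loci of the interval, not miR-26a-5p itself. The shortened locus had 399, 169 and 338 counts in input and 2, 2 and 3 in mock-treated libraries (log2 difference 7.70, standard error 0.329, edgeR adjusted p = 6.10e-119).

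An interval at chr10:128083327-128086417 in Atp5b, a subunit gene of ATP synthase, was at 6.96 and 2.12 CPM (log2 difference 1.69). There, a 42-nt locus in the small nucleolar RNA Snord59a, longer than any in mock-treated files, had 21, 36 and 23 counts in input. Intervals at chr12:67650597-67675786 (1.63) and chr2:98330533-98335796 (1.55) completed the 5 largest rises, and their main input loci were 30 and 29 nt long. The falls were smaller. The interval at chr10:22071753-22076537, in a Gm2539 pseudogene, was at 37.9 and 92.9 CPM (log2 difference -1.30). Intervals at chr19:5728550-5731701 (-1.27), in Tnks (-1.16), at Tub and Ric3 (-1.14) and in Fth1, the ferritin heavy chain gene (-1.13), followed. In Tnks, which encodes tankyrase, 1 locus of 29 nt at chr8:34829282-34829310 made up 40.2% of mock-treated and 4.73% of input counts.

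Repeat content was close between groups at the level of class. Counts outside repeats were 84.7%, 84.7% and 84.8% of input and 85.5%, 85.5% and 85.6% of mock-treated libraries. LTR retroelements took 7.62% ± 0.04999 and 6.75% ± 0.0427, LINEs 3.88% ± 0.0580 and 3.75% ± 0.018, and SINEs 2.60% ± 0.0236 and 2.13% ± 0.0375 (SD, n = 3 each). DNA transposons took 1.21% ± 0.0444 of input and 1.88% ± 0.0237 of mock-treated counts, but 1.17% and 0.829% without the most abundant hAT-Blackjack locus, so that the direction for this class turned on 1 locus. Each of these 4 classes differed without overlap (exact permutation p = 0.1). When each locus was counted once instead of by its counts, the differences for LINEs, SINEs, DNA transposons and outside repeats had the opposite sign.

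Of 25 features, 24 families and the counts outside repeats, 17 changed (68.0%), with 8 higher in input (32.0%) and 9 lower (36.0%), and 21 did not overlap between groups (84.0%). At least 2-fold differences were found for 7 families (28.0%). This balance depended on scaling, since with library totals 16 were higher and 8 lower and the median log2 difference moved from -0.01 to 0.24. The most abundant transposon families were near 0 on the TMM scale and above it with library totals. L1, the LINE family still active in mice, had log2 differences of -0.03 and 0.21, ERVK, which includes the IAP elements, 0.03 and 0.28, ERV1 0.05 and 0.30, and ERVL-MaLR -0.01 and 0.24. The SINE family B2 gave -0.02 and 0.22 and the ancient MIR family -0.03 and 0.22. None of these 6 passed the test on the TMM scale, and all 6 passed as higher in input with library totals (edgeR adjusted p from 2.67e-07 to 0.00128). Their single loci moved in both directions, with 7347 of 19046 tested L1 loci higher and 6836 lower and 6078 of 16030 ERVK loci higher and 5822 lower, close to the 39.1% higher and 36.3% lower of all tested loci.

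Some families differed under both scalings. The SINE family B4 was at 5396, 5662 and 5525 CPM in input and at 3802, 3805 and 3736 in mock-treated libraries (log2 difference 0.55, standard error 0.0228, adjusted p = 9.91e-07). CR1 (0.32), hAT-Charlie (0.23) and TcMar-Tigger (0.18), all ancient families, were also higher. ERVL was at 10082, 9895 and 10165 CPM in input and at 13669, 13704 and 13656 in mock-treated libraries (log2 difference -0.44, standard error 0.0144, adjusted p = 4.99e-07), and L2, an ancient LINE, was lower (-0.57). A single L2 5′ end, described below, was at 178 CPM of library totals in input and 2502 in mock-treated libraries. The direction of the L2 family may thus rest on that end, and the family was not tested without it. Alu, the name under which mouse B1 elements are listed, was lower on the TMM scale (-0.29) and did not pass with library totals (-0.04, adjusted p = 0.125).

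**Figure D5:**
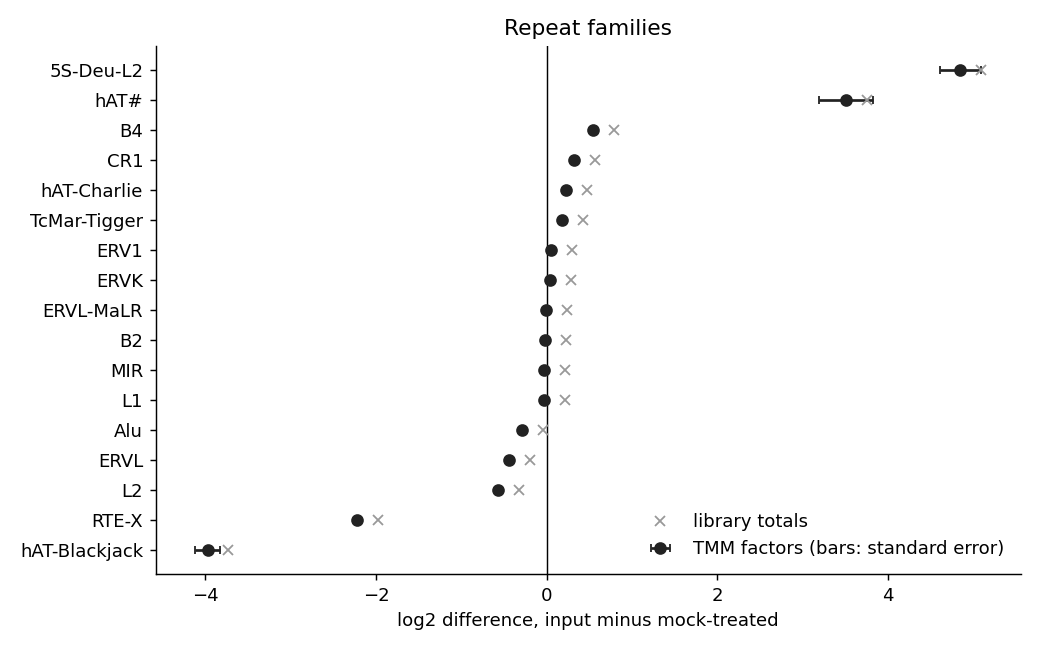
Log2 difference (x axis, input over mock-treated) of the named repeat families (y axis), as dots with standard errors on the TMM scale and as crosses for library totals. hAT-Blackjack and RTE-X lie farthest to the left and 5S-Deu-L2 and hAT# farthest to the right, whereas L1, ERVK and B2 lie near 0 on the TMM scale.

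The largest family differences rested mainly on 1 locus in hAT-Blackjack, and their breadth in the other families was not tested. The SINE family 5S-Deu-L2 was at 10.6, 12.3 and 15.7 CPM in input and at 0.519, 0.354 and 0.491 in mock-treated libraries. Its log2 difference was 4.85 (standard error 0.242, edgeR adjusted p = 2.32e-06). All 11 of its tested loci were higher. The family had 833 input and 54 mock-treated counts. Its loci thus passed the minimum mainly through input, and that tally is in part set by it. The family listed as hAT#, all of it the element EUTREP2, was at 328 ± 62.5 and 29.1 ± 11.2 CPM (log2 difference 3.51, standard error 0.315), and 1 locus of 30 nt at chr17:27321566-27321595 held 49.4% of its input counts. Of its 34 tested loci 31 were higher, but with 22179 input and 3357 mock-treated counts they passed the minimum mainly through input. RTE-X, all of it L4, was at 384 ± 19.1 and 1784 ± 13.5 CPM (log2 difference -2.22, standard error 0.0419), with 36.7% of its mock-treated and 15.3% of its input counts at 1 locus of 29 nt, chr5:149804108-149804136. Of the 155 RTE-X loci tested, 84 were lower and 45 higher, a tally in part set by the minimum, since most counts were mock-treated. These tallies do not show how broad the family differences were. hAT-Blackjack, a family of DNA transposon fossils, was at 835, 617 and 885 CPM in input and at 12143, 12040 and 12573 in mock-treated libraries (log2 difference -3.98, standard error 0.145, adjusted p = 6.34e-07). Of its mock-treated counts 93.6% were at the single MER94B locus on chromosome 12. Without it the family was at 455 and 722 CPM of library totals.

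At that 5′ end, the base at position 98400653 of chromosome 12 on the minus strand, the groups differed in both level and length. These values were looked up after the family result was seen, and are CPM of library totals. Summed over lengths the end was at 1924, 1594 and 2170 CPM in input and at 13150, 13126 and 13772 in mock-treated libraries (log2 difference on the TMM scale of 5′ ends -3.81, standard error 0.145, adjusted p = 1.25e-149). In mock-treated libraries 78.9% of its counts were at 29 nt and 2.45% at 30 nt, whereas in input 20.6% were at 29 nt and 48.1% at 30 nt. The 30-nt locus was higher in input, at 872, 787 and 1075 CPM against 354, 320 and 306. Since a repeat name was given only to loci wholly inside the repeat, the 29-nt locus was listed as MER94B and the 30-nt and 32-nt loci, which reach past its edge, as outside repeats. A single nucleotide at the 3′ end thus decided whether these counts entered a transposon family.

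The L2 element showed another case. In mock-treated libraries its counts came largely from the 5′ end at position 127817749 of chromosome 6 (plus strand), in the cluster at chr6:127772025-127854021. In input that end held a smaller part of them. This end was at 149, 215 and 171 CPM in input and at 2552, 2248 and 2707 in mock-treated libraries (log2 difference -4.80, standard error 0.159, adjusted p = 8.28e-197). In mock-treated libraries 36.2% of these counts were at 19 nt and 24.3% at 30 nt, and in input 0.117% and 63.6%, so that the end was lower in input as a whole and its short form almost absent.

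Elements repeated the pattern in finer detail. Of 343 elements 280 changed (81.6%), with 137 higher in input (39.9%) and 143 lower (41.7%), and 101 (29.4%) differed at least 2-fold. With library totals 199 were higher and 89 lower, and the median log2 difference moved from -0.01 to 0.39. Within L1, which as a family did not pass, L1M3 was at 1049, 1131 and 985 CPM in input and at 86.7, 69.8 and 72.7 in mock-treated libraries (log2 difference 3.79), and L1MA4 rose by 3.01. Within ERV1, MER52-int was at 801 ± 125 and 33.9 ± 1.12 CPM (log2 difference 4.56, standard error 0.109), with 39.7% of its input counts at 1 locus of 32 nt. MamRep38 of hAT-Tip100 was higher (3.80), with 72.5% of its input counts at 1 locus of 29 nt on chromosome 18. Besides MER94B (-4.13) and the element L2 (-3.17), RLTR20B2 of ERVK (13.0 and 111 CPM, log2 difference -3.11), ID2 (-2.40) and L4 (-2.37) were lowest. For RLTR20B2 the most abundant locus held 28.3% of mock-treated and 18.8% of input counts. Of its 55 tested loci 48 were lower. With 892 input and 12867 mock-treated counts, they passed the minimum mainly through mock-treated libraries, so that tally is in part set by it.

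Pairs of loci on opposite strands whose 5′ ends overlap by 10 nt, the trace of ping-pong amplification, were found in both groups. An overlap of 10 nt was the most frequent of those from 1 to 20 nt in all 6 libraries. Paired counts at 10 nt were 0.833%, 0.730% and 0.751% of input and 0.357%, 0.365% and 0.359% of mock-treated counts. Counts paired at the other overlaps were also higher in input, and relative to their mean the 10-nt value was 1.83, 1.96 and 1.83 in input and 2.11, 2.07 and 2.05 in mock-treated libraries. The absolute share was thus higher and the ratio lower in input (exact permutation p = 0.1 for each).

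The same loci were examined in 6 other libraries, 3 flow-through (Nextflex) and 3 CMC-treated (NEBNext), which were made with the same pair of kits and differ also by antibody incubation and by CMC. Flow-through is what the antibody leaves unbound, and the study's protocol for CMC, written for plant RNA, splits one ligated sample between both treatments. These libraries may thus share source RNA with those compared and are not independent of them. Of 574739 loci tested there, 61.6% changed between flow-through and CMC-treated libraries. Of the loci higher in input, 156096 of the 167508 tested there (93.2%) had higher values in flow-through, 119694 of them passing the test, and of those lower in input 193694 of 201672 (96.0%) had lower values, with 142414 passing. Of loci that had not passed, 38.0% had higher values. At 5′ ends (58.2% changed) the directions were shared by 92.5% and 95.0%, at clusters (47.0% changed) by 161 of 200 (80.5%) and 164 of 203 (80.8%), and at families (84.0% changed) by 8 of 8 and 8 of 9. The family that turned was Alu (log2 difference -0.29 here and 0.09 there, edgeR adjusted p = 0.174 there), and hAT-Charlie kept its direction without passing (0.07, adjusted p = 0.078). Most differences between input and mock-treated libraries thus had the same direction between other libraries of the same kits. Of the named clusters that had passed, 3 did not pass there, namely chr5:113313086-113380791 (log2 difference 0.03 there, adjusted p = 0.444), chr12:67650597-67675786 (0.01, adjusted p = 0.967) and chr19:5728550-5731701 (-0.06, adjusted p = 0.762). In addition, chr9:67687024-67773986, which had not passed, was lower there (-0.10, adjusted p = 0.00161).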

How the data were processed

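Small RNA of mouse testis was sequenced in 3 input and 3 mock-treated libraries, and 3 flow-through and 3 CMC-treated libraries were used for the last comparison. The authors clipped adaptors with Cutadapt, set tRFs aside, mapped other reads to mm10 with Bowtie 2, and intersected them with repeats and piRNA clusters using bedtools. They deposited raw counts per genomic interval and strand, 1 file per library, without normalization. Loci ran from 15 to 44 nt in input and from 14 to 33 nt in mock-treated libraries. Counting of reads with several alignments is not given in the sources used here. Every column was mapped to a sample. tRFs and the Ψ-IP libraries were not used here.

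Counts were joined by locus, and summed by 5′ end, by cluster (647 intervals), by repeat family and by element. Loci and 5′ ends with more than 20 counts in total, and the other features with an average of at least 100, were tested in R 4.3.3 with edgeR 4.0.16 (TMM, quasi-likelihood test, Benjamini-Hochberg adjustment, threshold 0.01). This minimum kept loci with 85.6% to 86.1% of input and 94.0% of mock-treated counts. Standard errors were derived as the absolute log2 difference over the square root of F. Single values were compared by exact two-sided permutation. Alternatives were DESeq2 1.42.0, other scalings, minimums and lengths, single libraries left out, and replicate number as a block. Sequence came from GENCODE M21 exons. Sampling limits (3 counts) cover counting error only, since reads without molecular identifiers are not independent molecules.

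Named features followed fixed rules: the 5 highest loci of each group and the 5 largest rises and falls, the 10 most abundant clusters and the 5 largest rises and falls, listed families and the 2 largest each way, 5 elements each way (average of at least 1000 counts), 3 5′ ends each way by length, and 6 sequences each way (at most 30 nt, outside UTRs and chromosome 18). The members, lists and rules were chosen with earlier results of these data known.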

Additional observations from a re-analysis of the deposited data

How the results depend on the processing

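In all, 1431 values were recomputed under alternatives. Of the counts and shares that answer a comparison, 269 stayed within 1.5 times or kept their direction and call, 20 moved and 5 reversed, and for named features 15 reversed, 14 no longer passed and 30 newly passed. The scaling by library totals, the 5′-end lengths of 2 loci and the DNA class without 1 locus were added after seeing the data. With library totals, 67730 5′ ends and 89 elements were lower and 16 families higher. Under that scaling the locus chr17:27333015-27333044 (0.26), the 5′ end at position 62226479 of chromosome 4 (0.80), the clusters on chr18 (0.023), chr6 (0.041) and chr5 from 149786246 (0.022), and the families B2 (0.22), ERVL-MaLR (0.24), L1 (0.21) and MIR (0.22) changed sign on the log2 scale. An average of at least 10 counts left 120816 loci higher and 135820 lower, and 73402 and 67395 5′ ends, from fewer features tested. At 100 counts these were 17555 and 21661 loci, where chr17:27333015-27333044 (1.11) and the MIRc locus (0.67) reversed, and with 1000 counts 92 and 106 clusters. Loci of 25 to 27 nt alone gave 112 and 111 clusters, and those of 24 to 33 nt 0.0070 for the chr6 cluster. With no minimum ERVK was at -0.0057. When each locus counted once, differences in the percent of counts, LINE (-0.000107), in the percent of counts, SINE (-0.226), in the percent of counts, DNA (0.0802), and outside repeats (0.139) and for first base G (1.72) reversed, and the cause was not tested. At 5 counts or more, with fewer than 5 taken as absent, 144412 loci were in all libraries, 127843 in all input and no mock-treated libraries, and 154781 the reverse. With single libraries left out, the last 2 ranged from 283380 to 416721 and from 288193 to 403136, the locus chr17:27333015-27333044 from -0.34 to 0.0020 and repeat families: MIR from -0.055 to 0.0067.

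Input and mock-treated libraries share replicate numbers, and the deviations of libraries with equal numbers correlated at 0.068, 0.053 and 0.044 over 84230 loci and at 0.035, 0.034 and 0.087 over clusters, too weakly to treat them as pairs. Over loci each library correlated best with its own number, a hint from the data only. Under the block by replicate number, 238174 loci were higher and 211221 lower, and 209 and 218 clusters, and no count moved by over 1.5 times. The sign-flip test over 3 pairs cannot go below 0.25. Depth limits the smallest differences at single loci, since 3 counts correspond to between 0.0514 and 0.181 CPM of a library's total.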
